A study of Gallus gallus with 3 samples.

Results

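Transcripts of telomerase and of the proteins that maintain telomeres were compared between cultured chicken (Gallus gallus) primordial germ cells (PGCs), the precursors of eggs and sperm, and chicken embryonic stem cells (ESCs), which served the study as the somatic counterpart of early embryonic germ cells. The genes were chosen by name, with earlier results of these data known. Of the 10 genes asked for (TERT, TERF1, TERF2, TERF2IP, POT1, TINF2, DKC1, ATRX, CTC1 and RTEL1), 8 carried that symbol in the deposited tables, out of 19152 genes counted. The row of RTEL1 had no symbol but an NCBI gene ID that RefSeq pairs with RTEL1, so RTEL1 is described beside the 8 and left out of their counts. TINF2 is not analysed here. Total RNA was sequenced from 2 libraries labelled as PGCs (replicates 2 and 3) and 1 library labelled as ESCs (replicate 2). The study's methods name Helixio or Eurofins Genomics for library preparation and sequencing, without saying which library went to which. No treatment is named for these cultures, and the labels give no sex, strain or passage.

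Telomeres are the repeat arrays at chromosome ends, which shorten at each round of replication unless they are extended. Telomerase extends them with its reverse transcriptase TERT, which copies an RNA template held by dyskerin (DKC1) and the other H/ACA proteins. Shelterin, a complex of TERF1, TERF2, TERF2IP, POT1, ACD and TINF2, coats the repeats and hides the ends from DNA repair, while the CST complex, of which CTC1 is the large subunit, fills in the complementary strand. In humans telomerase is active in germ cells and stem cells, whereas many somatic cells have little of it.

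Counts assigned to genes ranged from 19754278 to 20568106 per library. Genes with at least 10 counts in any library were kept (14489 of 19152). Levels are given as CPM (counts scaled to a common library size after trimmed-mean normalisation) where libraries are compared, and as TPM, which also divides by gene length, where genes are compared. A difference was called in 2 ways. The edgeR quasi-likelihood test called genes at a Benjamini-Hochberg adjusted p under 0.05. Its only replicate spread came from the PGC libraries (1 residual degree of freedom), and it assumes that the ESC library varies like them. The fold rule called genes for which each PGC library was 2-fold or more above the ESC library, or each was 2-fold or more below it. The study calls its replicates biological, but the labels do not say that the PGC libraries came from separate cultures. The spread between them may be technical. The test also moderates the spread of each gene with a spread shared over all genes (8.92 prior degrees of freedom). The p-values thus rest mostly on that shared spread, not on the difference of 1 gene between the PGC libraries. All 6 germ cell markers (DAZL, DDX4, PIWIL1, MAEL, TDRD5 and TDRD9) were past both rules and higher in PGCs, with a summed level of 4271 and 4371 CPM against 90.9 CPM in the ESC library, where TDRD5 alone was at 0. Of 4 pluripotency markers 3 were measured (NANOG, SOX2 and SOX3, without POU5F3). They were above 0 in every library, with summed levels of 227, 345 and 286 CPM. Most of this was NANOG (199, 294 and 241 CPM), while SOX2 had only 58, 34 and 36 counts. Of 7 mesenchymal markers 6 were measured and none was at 0. Their sum was 624 and 734 CPM in the PGC libraries and 71.8 CPM in the ESC library, mostly from the collagen genes COL3A1 and COL1A2. By the edgeR test these 2 of the 6 were higher in PGCs, beside 21.2% of all genes, and 3 were lower (DCN, POSTN and THY1), beside 20.6%. In PGC replicates 2 and 3 and ESCs, DCN had 1, 5 and 123 counts. POSTN had 10, 10 and 84 counts, and THY1 had 18, 20 and 84. The fold rule called COL3A1 higher and the same 3 genes lower, beside 21.6% and 15.8% of all genes. COL1A2 passed edgeR narrowly (adjusted p = 0.0495) and did not pass DESeq2 (adjusted p = 0.358). It stood at 51.4 and 327 CPM in PGC replicates 2 and 3 and 39.5 CPM in the ESC library. These are bulk samples, in which fewer expressing cells and less RNA per cell cannot be told apart.

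All 8 genes and RTEL1 were expressed in every library, with at least 514 counts each. PGCs had a higher level of the TERF2 partner TERF2IP (2.02-fold by edgeR) and lower levels of the dyskerin gene DKC1 (2.29-fold) and of the helicase gene RTEL1 (2.13-fold), while TERT did not pass the test in either direction. By the edgeR test 1 of the 8 genes was higher in PGCs (TERF2IP), against 21.2% of all genes tested, and 1 was lower (DKC1), against 20.6%. With RTEL1 added, 2 of 9 were lower. By the fold rule 0 of 8 were higher, against 21.6% of all genes, and 0 were lower, against 15.8%, and RTEL1 was lower by this rule. Both PGC libraries lay above the ESC library for 4 of the 8 genes, as for 45.8% of all genes, and below it for 3, as for 44.1%. These shares are near those of all genes or under them. Their median log2 ratio was 0.02, beside 0.03 over all genes tested, and 3 of the 8 had an unadjusted edgeR p under 0.05, as did 7467 of the 14489 genes tested.

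**Figure D1:**
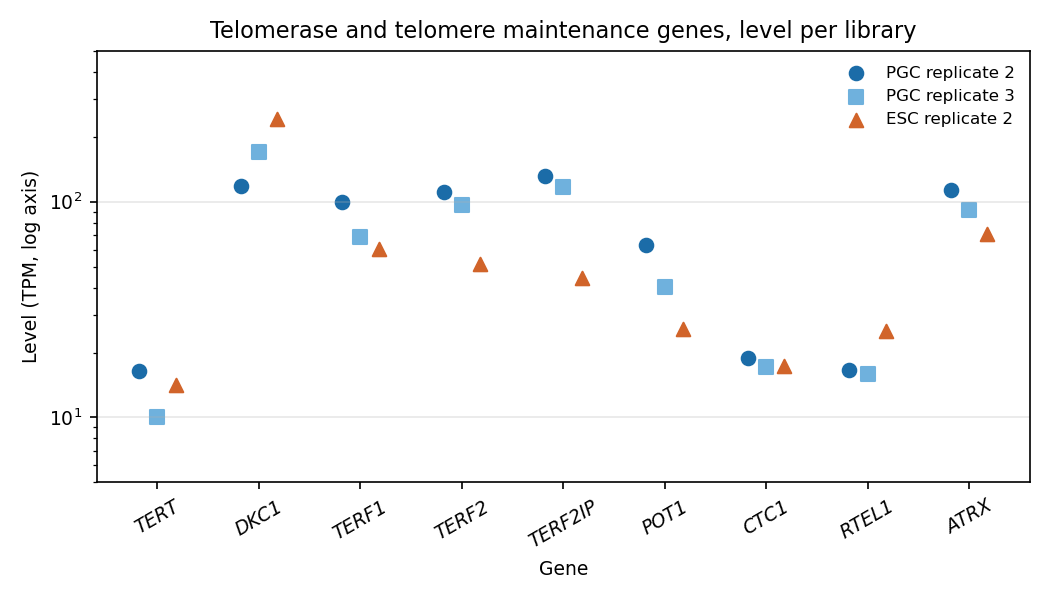
Level of each gene in TPM on a log axis, with 1 point per library (circles and squares, PGC replicates 2 and 3; triangles, ESC replicate 2). DKC1 led in the ESC library at 243 TPM, whereas TERF2IP stood at 132 and 117 TPM in the PGC libraries and 44.4 TPM in the ESC library.

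Per length, TERT, CTC1 and RTEL1 were the 3 lowest of the 9 throughout, between 10.04 and 25.1 TPM. POT1 followed at 62.7 and 40.2 TPM in PGC replicates 2 and 3 and 25.6 TPM in the ESC library, where it was next to RTEL1 at 25.1 TPM. The other 5 genes lay between 44.4 and 243 TPM. The order at the top differed between the libraries, the PGC libraries included. TERF2IP was the first in PGC replicate 2 and the second in PGC replicate 3, and the fifth in the ESC library. DKC1, at 119, 170 and 243 TPM, was the second, the first and the first. In PGC replicate 2, neighbours in this order (DKC1 at 119, ATRX at 113 and TERF2 at 111 TPM) were closer to each other than their PGC libraries were, and their order is not resolved. TERT was above 45.3%, 39.5% and 50.8% of the genes tested in the 3 libraries, and TERF2 above 86.7%, 86.2% and 77.9%.

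TERT (ENSGALG00000013183, galGal5 chromosome 2, 86021205 to 86050671, minus strand, 17 exons with 4835 bases), the catalytic subunit of telomerase, had 779 counts in PGC replicate 2, 514 in replicate 3 and 790 in ESCs. These were 34.8, 24.7 and 44.5 CPM, with an exact Poisson 95% interval of 41.4 to 47.7 CPM for the ESC library that covers counting error only. Both PGC libraries were thus below the ESC library on this scale. The edgeR log2 difference was −0.58 ± 0.28 (SE, n = 2 and 1), with an approximate 95% interval from −1.20 to 0.04 and an adjusted p of 0.116, so the difference did not pass the test. The PGC libraries themselves differed by 0.49 on the log2 scale. Without PGC replicate 2 the difference was −0.84, and without PGC replicate 3 it was −0.32. In TPM, which was computed without the trimmed-mean factor, PGC replicate 2 stood above the ESC library (16.4, 10.04 and 14.1 TPM), so the side of that library depended on the scale. Among 11934 other genes with a symbol, those with the pattern nearest to TERT over the 3 libraries were CEP76, SVBP and RGS17, at Euclidean distances of 0.01, 0.03 and 0.03 in centred log2 CPM. A total of 48 genes lay within 0.1, and the likeness rests on 3 points.

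**Figure D2:**
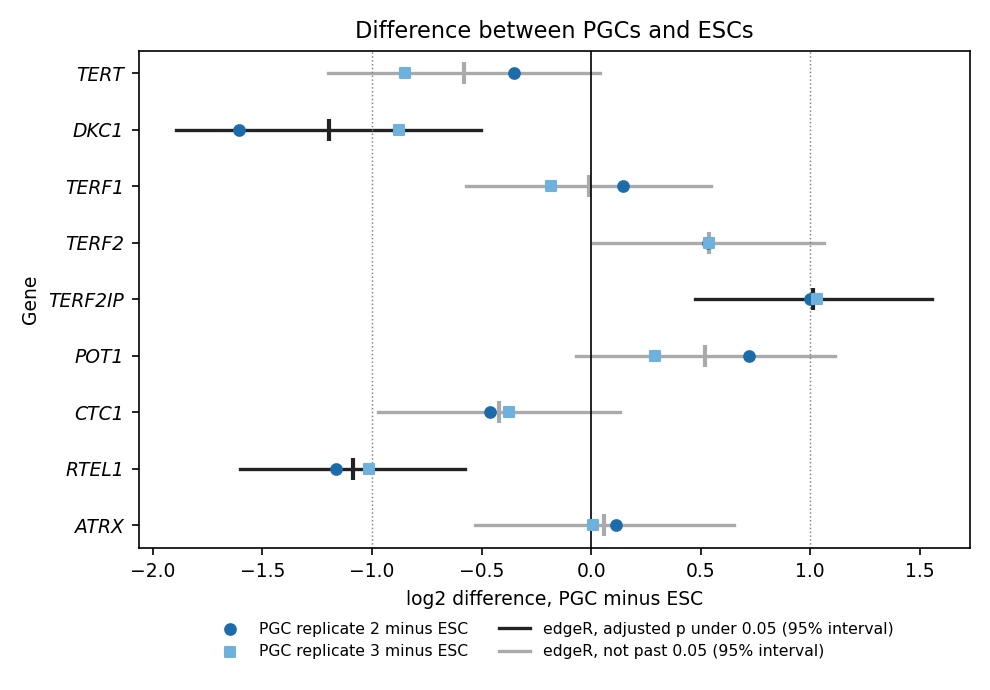
Log2 difference of PGCs minus ESCs for each gene. Points are the ratios of PGC replicate 2 (circles) and replicate 3 (squares) to the ESC library, bars are approximate 95% intervals of the edgeR estimate (black, adjusted p under 0.05; grey, not past it), and dotted lines mark a 2-fold difference. TERF2IP lay above 0, DKC1 and RTEL1 below it, and the intervals of the other genes included 0 except that of TERF2 (0.01 to 1.06).

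DKC1 (ENSGALG00000005054, chromosome 4, 2130910 to 2140083, 15 exons) was lower in PGCs. It encodes dyskerin, the pseudouridine synthase of H/ACA particles, which modifies ribosomal RNA and stabilises the telomerase RNA. Its counts were 3281 and 5062 in PGC replicates 2 and 3 and 7924 in ESCs, or 147, 243 and 446 CPM. The edgeR log2 difference was −1.20 ± 0.31 (SE, adjusted p = 0.0127). With DESeq2 the adjusted p was 0.00229, and over the alternatives tested it was at most 0.0137. The PGC libraries differed by 0.73 on the log2 scale, so the size of the difference depended on the library. It was −1.57 without PGC replicate 3 and −0.87 without PGC replicate 2, the latter short of 2-fold.

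Of the 5 H/ACA genes measured (of 6 listed), 2 were lower in PGCs by the edgeR test and 0 were higher, beside 20.6% and 21.2% of all genes. GAR1 (chromosome 4, 58489311 to 58492435), a core H/ACA protein, had 2131 and 3308 counts in the PGC libraries and 5000 in ESCs. Its log2 difference was −1.15 ± 0.30 (SE, edgeR adjusted p = 0.0132). DKC1 and GAR1 moved together over the libraries, with a TPM ratio of DKC1 to GAR1 of 0.346, 0.344 and 0.357. NHP2, a further core protein, had 26.7, 26.3 and 37.6 CPM and did not pass (log2 difference −0.50 ± 0.25, edgeR adjusted p = 0.130). The assembly factor NAF1 and the dyskerin chaperone SHQ1 had log2 differences of −0.04 and −0.00, with 95% intervals from −0.57 to 0.49 and from −0.55 to 0.55.

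The decrease of DKC1 and GAR1 went along with that of other nucleolar genes. Of 6 nucleolar and ribosome biogenesis genes, listed with earlier results of these data known, 4 were measured (NOP58, NCL, NPM1 and NOLC1). All 4 were lower in PGCs by the edgeR test, beside 20.6% of all genes, and all but NCL also by DESeq2. Their summed level was 2748 and 4904 CPM in PGC replicates 2 and 3 against 10020 CPM in ESCs, and none of them was at 0. The order of the libraries was the same as for DKC1. The TPM ratio of DKC1 to NPM1 was 0.0415, 0.0444 and 0.0417, and that of DKC1 to NOLC1 was 0.890, 0.865 and 0.826. The ratio of DKC1 to NOP58 was 0.425, 0.524 and 0.463, and that of DKC1 to NCL was 0.158, 0.112 and 0.0950, so NCL followed DKC1 less closely than the other 3 did. The ratio of DKC1 to TERT was 7.24, 16.9 and 17.2. Of 7 proliferation genes, 1 (PCNA) was lower by the edgeR test and 0 were higher, beside 20.6% and 21.2% of all genes. DESeq2 also called CDK1 lower (adjusted p = 0.0456). The summed level of the 7 was 2140 and 2322 CPM in the PGC libraries and 3322 CPM in ESCs, with none at 0. In CPM all 7 lay below the ESC library in both PGC libraries, as did 44.1% of all genes. MCM2 and MCM5 did so by little (log2 differences of −0.07 and −0.12). In TPM these genes stood above the ESC library in both PGC libraries (MCM2 174.5, 159.9 and 126.6 TPM, MCM5 147.5, 114.4 and 102.1 TPM). The part of either list in the DKC1 difference was not tested.

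**Figure D3:**
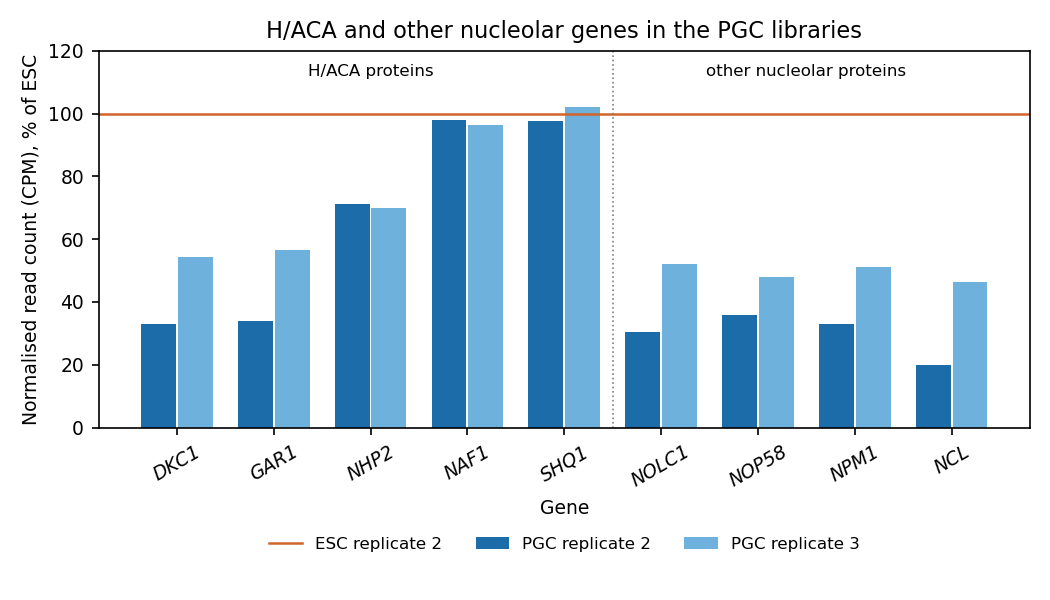
CPM in PGC replicate 2 (dark bars) and PGC replicate 3 (light bars) as a percentage of the ESC library (line at 100%), for H/ACA genes on the left and other nucleolar genes on the right. DKC1 stood at 32.8% and 54.5% and GAR1 at 33.8% and 56.4%, close to NOLC1 (30.5% and 52.0%) and NPM1 (33.0% and 51.2%) and above NCL (19.8% and 46.3%), whereas NAF1 and SHQ1 lay between 96.3% and 102%.

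TERF2IP was the shelterin gene with the clearest difference. TERF2IP (ENSGALG00000000903, chromosome 11, 20106415 to 20109147, minus strand, 3 exons) encodes RAP1, which binds telomeres through TERF2. It had 2687 and 2557 counts in the PGC libraries and 1067 in ESCs, or 120, 123 and 60.1 CPM. The PGC libraries differed by 0.03 on the log2 scale and were both near 2.0 times the ESC library (1.996 and 2.04), the first just under the fold rule. The edgeR log2 difference was 1.01 ± 0.24 (SE, adjusted p = 0.00844), and over the alternatives tested the adjusted p lay between 5.0e-04 and 0.00958. Its exons overlap those of KARS, a lysyl-tRNA synthetase gene on the other strand, over 306 bases or 14.8% of its length. Whether counting used the strand is not stated. KARS itself had 352.5, 465.8 and 645.5 CPM, lower in PGCs without passing the test (edgeR adjusted p = 0.0979).

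TERF2 (ENSGALG00000000657, chromosome 11, 19180205 to 19188036, minus strand, 10 exons), which binds the duplex repeats and protects the ends from fusion, was higher in both PGC libraries but did not pass the test. Its counts were 3244, 3032 and 1778, or 145, 146 and 100.1 CPM. The log2 difference was 0.54 ± 0.24 (SE), with an edgeR adjusted p of 0.0926. Without a scaling factor it passed, with 0.86 and an edgeR adjusted p of 0.00994, the lowest over the alternatives tested, of which DESeq2 gave the highest at 0.157.

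POT1 (ENSGALG00000008740, chromosome 1, 21741971 to 21804718, 21 exons) binds the single-stranded overhang. It had 2738, 1891 and 1318 counts, or 122, 90.8 and 74.2 CPM, so both PGC libraries were above the ESC library but differed from each other by 0.43 on the log2 scale. Its log2 difference was 0.52 ± 0.27 (SE, edgeR adjusted p = 0.138). Without a scaling factor it was 0.85 with an edgeR adjusted p of 0.0220, the lowest over the alternatives tested, and DESeq2 gave the highest at 0.228.

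TERF1 (ENSGALG00000037453, chromosome 2, 118052590 to 118075361, 10 exons), the other duplex repeat binder and a regulator of telomere length, had 3829, 2836 and 2748 counts. At 171, 136 and 155 CPM, the ESC library lay between the PGC libraries. The log2 difference was −0.01 ± 0.25 (SE, edgeR adjusted p = 0.975), with a 95% interval from −0.57 to 0.55. Differences within that interval remain possible at this replication. Its exons overlap SBSPON on the other strand over 532 bases, but SBSPON had 23 to 26 counts per library. ACD, which links POT1 to the rest of the complex and recruits telomerase, had 21.1, 24.2 and 20.8 CPM (log2 difference 0.12 ± 0.28, edgeR adjusted p = 0.745). Of the 5 shelterin genes measured, 1 was higher in PGCs by the edgeR test and 0 were lower, beside 21.2% and 20.6% of all genes.

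Within a library the balance of shelterin transcripts does not depend on the scaling between libraries. TERF2IP made up 29.9% and 32.7% of the summed TPM of the 5 genes in PGC replicates 2 and 3 and 21.6% in the ESC library. TERF1 made up 22.6% and 19.2% against 29.5%. TERF1 was the most abundant of the 5 in the ESC library and the third in both PGC libraries. The TPM ratio of TERF2IP to TERF1 was 1.32, 1.70 and 0.733, and that of TERF2 to TERF1 was 1.11, 1.40 and 0.850. Both ratios were thus above 1 in the PGC libraries and below 1 in the ESC library.

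**Figure D4:**
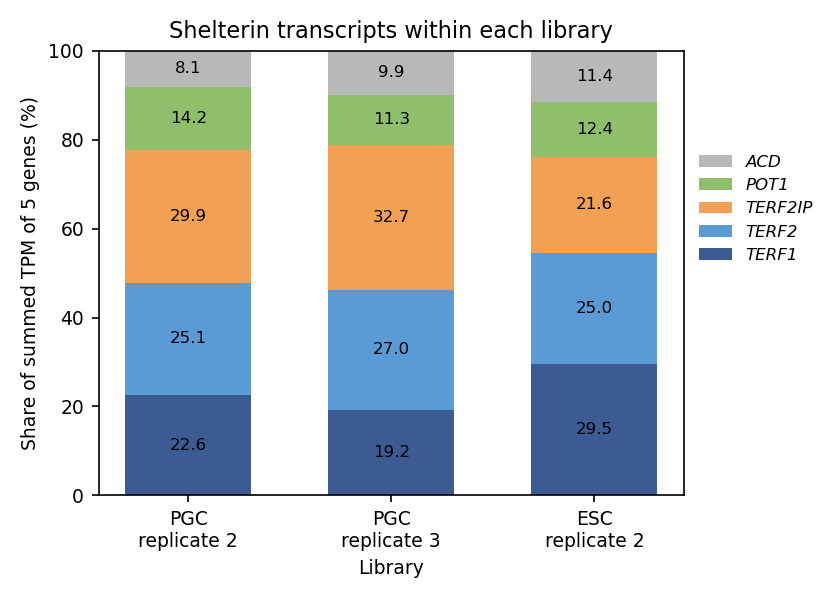
Share of each of 5 shelterin genes in their summed TPM, in percent, with 1 stacked bar per library. TERF2IP took the largest share in PGC replicates 2 and 3 (29.9% and 32.7%) and TERF1 in the ESC library (29.5%), while TERF2 lay between 25.04% and 26.97%.

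CTC1 (ENSGALG00000032036, chromosome 1, 79378276 to 79392110, minus strand, 23 exons) encodes the large subunit of CST, which ends telomere extension and brings DNA polymerase alpha to the other strand. Its counts were 648, 640 and 708, or 28.9, 30.7 and 39.9 CPM. Both PGC libraries were below the ESC library and close to each other. The log2 difference of −0.42 ± 0.25 (SE) did not pass the edgeR test (adjusted p = 0.196), and its sign turned in TPM (0.05). The smaller subunits STN1 and TEN1 had log2 differences of 0.33 ± 0.25 and 0.67 ± 0.39 and did not pass either (edgeR adjusted p = 0.296 and 0.189). TEN1 was the telomere gene measured whose PGC libraries were furthest apart, with 873 and 407 counts, beside 326 in ESCs. The TPM ratio of CTC1 to STN1 was 0.397 and 0.436 in the PGC libraries and 0.701 in the ESC library.

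RTEL1 (ENSGALG00000006123, chromosome 20, 9857387 to 9895824, minus strand, 36 exons) was lower in PGCs. It encodes a helicase that unwinds telomeric loops and G-rich structures, a role known from mouse and human cells. It had 1130 and 1168 counts in the PGC libraries and 2010 in ESCs, or 50.5, 56.1 and 113 CPM. Both PGC libraries were below the single ESC library and differed from each other by 0.15 on the log2 scale. The edgeR log2 difference was −1.09 ± 0.23 (SE, adjusted p = 0.00464), and over the alternatives tested the adjusted p lay between 0.00245 and 0.0258. The fold rule was met with log2 ratios of −1.16 and −1.01.

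Among the 34 other telomere genes measured, of 43 listed by role, 4 were higher in PGCs by the edgeR test, beside 21.2% of all genes tested, and 8 were lower, beside 20.6%. DESeq2 kept 3 and 5 of these. The fold rule was met by 1 gene, DCLRE1B, which was higher, and by 0 lower genes, beside 21.6% and 15.8% of all genes. The 34 genes had a median log2 ratio of −0.12, beside 0.03 over all genes. Genes listed but not matched by name were TERC (the telomerase RNA), NOP10, WRAP53, TEP1, RUVBL2, DAXX, TERB2, MAJIN and KASH5. DCLRE1B, WRN and SLX4 were higher and GAR1, FEN1 and SMG6 lower at an adjusted p under 0.05 under each scaling, filter and tool tried, whereas the other 6 calls were lost under at least 1 of them.

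DCLRE1B (ENSGALG00000028626, chromosome 26, 3770574 to 3773417, 4 exons) had the widest difference of all telomere genes measured. It encodes Apollo, a 5′ exonuclease that is recruited by TERF2 in mammals and trims newly replicated ends. It had 700 and 617 counts in the PGC libraries and 31 in ESCs, or 31.3, 29.6 and 1.75 CPM, the last with an exact Poisson 95% interval of 1.19 to 2.48 CPM. The ESC library was thus far below both PGC libraries. The edgeR log2 difference was 4.12 ± 0.37 (SE, adjusted p = 3.8e-05), or 17.4-fold. Per length, DCLRE1B stood at 0.243 and 0.229 of TERF2 in the PGC libraries and 0.0197 in the ESC library.

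Other helicases and nucleases were called in both directions. SLX4, the scaffold of structure-specific nucleases, had 88.7, 71.3 and 35.7 CPM (log2 difference 1.16 ± 0.27, edgeR adjusted p = 0.00678). WRN, a RecQ helicase with an exonuclease domain, had 103, 103 and 52.8 CPM (0.96 ± 0.24, edgeR adjusted p = 0.0109). FEN1, the flap nuclease of lagging-strand synthesis, had 105, 132 and 253 CPM (−1.10 ± 0.25, edgeR adjusted p = 0.00616). EXO1, a 5′ exonuclease that resects ends, and PIF1, a helicase that removes telomerase from DNA in yeast, were lower by the edgeR test (log2 differences of −0.67 and −0.97) but not by DESeq2, whose adjusted p-values were 0.0734 and 0.0930. BLM, a RecQ helicase, and MRE11, RAD50 and NBN, the complex that senses broken ends, had log2 differences from −0.58 to −0.06 and did not pass. Of the 11 genes of this role, RTEL1 included, 3 were higher and 4 lower by the edgeR test, beside 21.2% and 20.6% of all genes.

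ATRX (ENSGALG00000007843, chromosome 4, 12860852 to 12935606, minus strand, 35 exons), a remodeller that places histone H3.3 at telomeres and whose loss accompanies telomerase-free telomere maintenance in human tumours, was nearly level between the cell types. Its counts were 8103, 7013 and 5946, or 362, 337 and 335 CPM. The log2 difference was 0.06 ± 0.27 (SE, edgeR adjusted p = 0.867), with a 95% interval from −0.53 to 0.65. Without a scaling factor the difference was 0.38, and in TPM it was 0.53. Other telomere chromatin genes moved in both directions. RIF1, which controls replication timing and repair choice, had 271, 344 and 556 CPM and was lower (−0.85 ± 0.28, edgeR adjusted p = 0.0327; 0.0578 without a scaling factor). HMBOX1, which binds telomere repeats in human cells, was lower (−1.03 ± 0.34, edgeR adjusted p = 0.0358) and SMARCAL1, which restarts stalled forks, was higher (0.78 ± 0.26, edgeR adjusted p = 0.0341), both without passing DESeq2 (adjusted p = 0.0982 and 0.0706). ZBTB48, a repeat-binding zinc finger protein, had 14.7, 15.3 and 17.1 CPM and did not pass.

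In telomerase maturation, PARN, which trims the telomerase RNA in human cells, was lower in PGCs at 121, 126 and 207 CPM (−0.74 ± 0.23, edgeR adjusted p = 0.0263), a call lost without a scaling factor (adjusted p = 0.157). PINX1, known as an inhibitor of telomerase, had 21.1, 23.2 and 12.6 CPM and just missed the threshold (0.81 ± 0.30, edgeR adjusted p = 0.0531). SMG6, a relative of the yeast telomerase factor Est1 that cuts RNAs in nonsense-mediated decay, was lower at 107, 135 and 247 CPM (−1.03 ± 0.25, edgeR adjusted p = 0.00841). The tankyrases TNKS and TNKS2, which release TERF1 from telomeres in human cells, had log2 differences of 0.41 and 0.32 and did not pass. The 3 measured genes of meiotic telomere attachment did not pass either. TERB1, a telomere anchor of meiotic prophase, had 70.8, 53.1 and 85.3 CPM, and the nuclear envelope proteins SUN1 and SUN2 had log2 differences of −0.03 and −0.52.

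**Figure D5:**
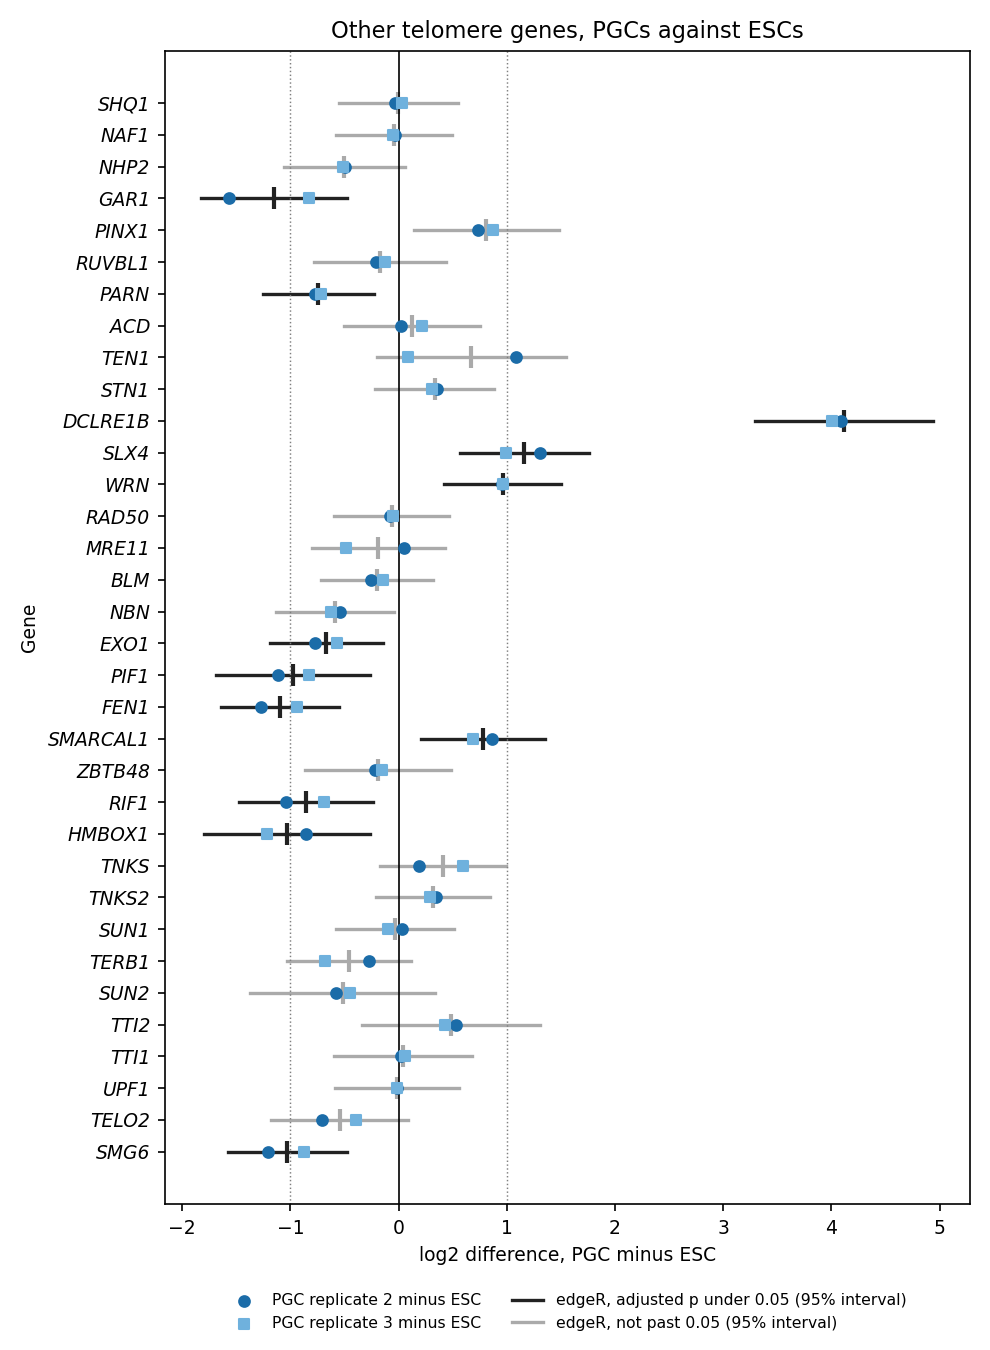
Log2 difference of PGCs minus ESCs for the 34 other telomere genes, ordered by role. Circles and squares are the ratios of PGC replicates 2 and 3 to the ESC library, bars are approximate 95% intervals of the edgeR estimate (black, adjusted p under 0.05; grey, not past it), and dotted lines mark a 2-fold difference. DCLRE1B stood alone at 4.12, and the other 33 estimates lay between −1.15 and 1.16.

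The scaling between libraries moved every difference by a similar amount. The median edgeR log2 difference of all genes was 0.04 with trimmed-mean scaling, 0.36 without a scaling factor and, on log2(TPM + 0.1), 0.49. Relative to these medians, TERT was at −0.62, −0.61 and −0.62, TERF2IP at 0.97, 0.97 and 0.99, DKC1 at −1.24, −1.26 and −1.26, and RTEL1 at −1.13, −1.13 and −1.11. TERF1 was at −0.05, −0.04 and −0.04. In absolute terms TERF1 turned from −0.01 to 0.32 and 0.45, and CTC1 from −0.42 to −0.10 and 0.05. TERF2, TERF2IP, POT1 and ATRX stayed above 0 and TERT, DKC1 and RTEL1 below 0 under each setting tried.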

How the data were processed

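The RNA libraries analysed here were 2 of PGCs and 1 of ESCs, with groups and replicate numbers from the sample titles. The study's methods name more replicates of each cell type than these. Per the study's methods, the authors aligned paired-end reads with TopHat and Bowtie 2 to Ensembl transcripts of galGal5 and deposited whole-number counts per gene from featureCounts, not normalized. Tool versions of these steps and the strand setting are not given in the sources used here. The authors' second deposited table held a normalized signal (counts divided by a DESeq2 size factor per library), from which only symbols and descriptions were taken, and fold changes and p-values of their own comparison, which were not used. A further 4 columns of per-sample values matching no sample label were not used. Symbols missing there were filled through NCBI gene IDs and RefSeq (assembly GRCg7b, names alone). Like RTEL1, the listed genes ACD, RAD50, TERB1 and MKI67 were named in this way, but these are included in the counts of their lists.

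Genes with at least 10 counts in any library were kept. TMM factors were 1.13, 1.02 and 0.864 (edgeR 4.0.16, R 4.3.3), and log2 CPM used a prior count of 2. The edgeR quasi-likelihood test used the 3 libraries without covariates, with p-values adjusted over 14489 genes. The SE is the log2 difference divided by the square root of F. The 95% intervals use it with 9.92 degrees of freedom, of which 1 is residual and 8.92 are prior. TPM was computed from counts and the deposited gene lengths. The edgeR script was tested on simulated data. DESeq2 1.42.0 was an alternative, beside other scalings, filters, prior counts and thresholds, and leaving out each PGC library.

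Members and lists were chosen with earlier results of these data known. Genes named are the 10 members, the genes of the wider list by role, genes whose exons overlap a member, markers, and the 3 genes nearest to TERT. Of the markers, 2 of 7 erythroid genes were measured (ALAS2 and HBBR), with summed levels of 16.2, 18.5 and 47.5 CPM in PGC replicates 2 and 3 and ESCs. Nearly all of this was ALAS2 (16.0, 17.8 and 47.1 CPM), while HBBR had only 4, 15 and 8 counts. The exons of ALAS2 overlap TWF2 on the other strand over 656 bases. Promoter motifs were not analysed here.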

Additional observations from a re-analysis of the deposited data

How the results depend on the processing

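All differences rest on 1 ESC library, whose own spread is unknown. The adjusted p-values borrow the spread of the PGC libraries and a spread shared over all genes. No paired analysis was made, since the labels do not link any PGC library to the ESC library. Without a PGC library no residual degree of freedom is left, so those values have no test, and the ESC library could not be left out. TERF2IP (higher), DKC1 and RTEL1 (lower) kept their call under each scaling, filter and test at 0.05. For the other values below the cause was not tested.

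Over all genes, an adjusted p under 0.01 gave 1766 higher and 1730 lower genes in place of 3069 and 2979, and a 4-fold threshold 1491 and 859 in place of 3124 and 2293. Without a scaling factor 4161 of the 14489 genes were called higher by edgeR and 2063 lower. Of those calls 66.9% were higher, in place of 50.7%. The fold rule then called 3872 genes higher and 1644 lower, and with DESeq2 size factors 3102 and 2312. Without PGC replicate 2 it called 3343 and 2559 of 14099 genes, and without PGC replicate 3 it called 3841 and 2929 of 14305. Among the 8 genes, edgeR calls for higher in PGC became 3 without a scaling factor (TERF2 and POT1 were added). Those for lower became 0 at an adjusted p under 0.01 and 2 with RTEL1. RTEL1 was among the 10 genes asked for, but the count with it was not planned. The fold rule gave 1 higher gene with DESeq2 size factors and 1 without a scaling factor and 1 without either PGC replicate, and for lower genes 0 to 1 without a PGC replicate and 1 with RTEL1. Their median log2 ratio became 0.34 without a scaling factor and 0.49 in TPM, beside 0.34 and 0.49 for all genes. It lay between −0.08 and 0.17 without a PGC replicate.

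Among the 34 other genes, edgeR calls for higher became 8 without a scaling factor, beside 4161 of all 14489 genes. They became 2 at an adjusted p under 0.01, beside 1766. Calls for lower became 3 without a scaling factor, beside 2063, 5 with DESeq2, beside 2293, and 2 at an adjusted p under 0.01, beside 1730. The fold rule gave 4 higher genes without a scaling factor, beside 3872 of all genes. Without PGC replicate 2 it gave 2 higher and 1 lower, beside 3343 and 2559 of 14099 genes. Without PGC replicate 3 it gave 3 higher and 4 lower, beside 3841 and 2929 of 14305 genes. DESeq2 size factors and the filter changed no edgeR call of the 8 genes, RTEL1 or the 34 other genes.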

Other observations

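The genes of the TEL2 complex, which stabilises the kinases that signal DNA damage, showed no called difference. TELO2 had 16.6, 20.6 and 27.1 CPM in PGC replicate 2, PGC replicate 3 and ESCs, TTI1 had 19.0, 19.5 and 18.8 CPM, and TTI2 had 11.3, 10.6 and 7.83 CPM, with edgeR adjusted p-values of 0.145, 0.921 and 0.306. The RNA helicase gene UPF1, which acts in RNA decay and is found at telomeres in human cells, had 289.6, 290.2 and 292.8 CPM (log2 difference −0.01, with a 95% interval from −0.58 to 0.56).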
